A study of Ovis aries with 12 samples.

Results

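The corpus luteum of non-pregnant ewes was compared between day 14 and day 12 of the oestrous cycle, with 3 glands on each day. These 6 arrays, chosen by the source label, are 6 of the 12 in the study. Each of the 12 titles reads day 12 pregnant, so title and source label disagree for 9 arrays, including all 6 non-pregnant ones, and the grouping rests on the source label alone. The other 6 came from pregnant ewes on the same days, 3 per day, and entered the statistical fit. All glands were luteal tissue from sheep, 1 gland and 1 array per ewe. Non-pregnant ewes had not been bred, and their heat was followed with a vasectomized ram, whereas pregnant ewes had been bred to a fertile ram. No strain, age or drug treatment was named in the labels. RNA was labelled with a whole-transcript kit and read on Affymetrix bovine arrays, and each gene's level is an RMA value on the log2 scale, where a difference of 1 is a 2-fold change. Day 14 glands are numbered 1 to 3 in accession order, which carries no other meaning.

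The corpus luteum forms from the ovulated follicle and secretes progesterone. When no embryo signals its presence, the uterus releases prostaglandin F2 alpha, which ends progesterone secretion and starts the breakdown of the gland, a process called luteolysis. In ruminants the conceptus prevents this with interferon tau, and oxytocin from the gland itself helps to drive the uterine prostaglandin release. The labels give the day of the cycle and no measure of progesterone, so how far luteolysis had gone in a given ewe is not stated.

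The 10 measured luteal cell markers had day 12 means from 5.76 for INHA, the inhibin alpha subunit, to 13.08 for OXT (oxytocin). STAR (sterol transport into mitochondria) was at 13.05, and HSD3B1 and CYP11A1, the enzymes that make progesterone from cholesterol, were at 12.23 and 11.75. The brightness of a probe set also depends on how well the bovine probes match sheep RNA, so these levels are only a coarse check of the tissue label. Array medians ran from 5.16 to 5.24 over the 6 arrays. Description labels split the arrays into 2 batches by array name, a gene array (batch A) and a genome array (batch B), and whether these are separate designs or separate runs was not settled. All 3 day 12 glands and day 14 gland 1 lie in batch B, and day 14 glands 2 and 3 lie in batch A, so batch and gland cannot be told apart among the day 14 glands. The fit includes batch as a term, and the step of gland 1 over the day 12 mean is the within-batch value. A fitted difference therefore need not equal the plain difference of the group means. These were -3.33 and -3.0 for PTHLH, and -0.15 and 0.12 for the brightest probe set of PTGS2. Batch itself passed for 0 probe sets in limma (1658 at an unadjusted p under 0.05). The 3′ minus 5′ signal of control probe sets can reflect RNA integrity. For actin it was 2.80 to 2.98 on day 12 and 2.45, 2.77 and 2.82 in day 14 glands 1, 2 and 3. For GAPDH it was -0.05 to 0.14 on day 12 and 0.13, -0.01 and 0.05 in these glands. The mean of the 2 controls was 1.42 to 1.47 on day 12 and 1.29, 1.38 and 1.43 on day 14. The part of this signal in the results was not tested.

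Of 24016 probe sets tested, 94 (0.391%) differed between day 14 and day 12 at a limma adjusted p under 0.05 (Benjamini-Hochberg over all probe sets), 70 higher (0.291%) and 24 lower (0.0999%) on day 14. At an unadjusted p under 0.05, 2807 passed. In all 94, the 3 day 14 values lay wholly above or wholly below the 3 day 12 values. Over all probe sets, 7.67% had every day 14 value above every day 12 value and 12.1% had every one below. The rises ran from 0.56 to 4.30 on the log2 scale with a median of 1.27, and the falls from -0.53 to -3.33 with a median of -1.0. The called probe sets named 55 genes, 44 rising and 11 falling, and 34 of the probe sets had no gene symbol. Of the 55 genes, 28 had 1 probe set, and of the 27 with several 1 had all of them called and 26 only some. Of the 94, 7 were dim probe sets, in the lowest 25% by mean signal, and all 7 were rises. Leaving out day 12 gland 2 left 28 calls and leaving out day 14 gland 2 gave 254. Without the batch term, 415 passed. With array weights that allow each group its own spread, 69 passed, 56 higher and 13 lower.

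**Figure D1:**
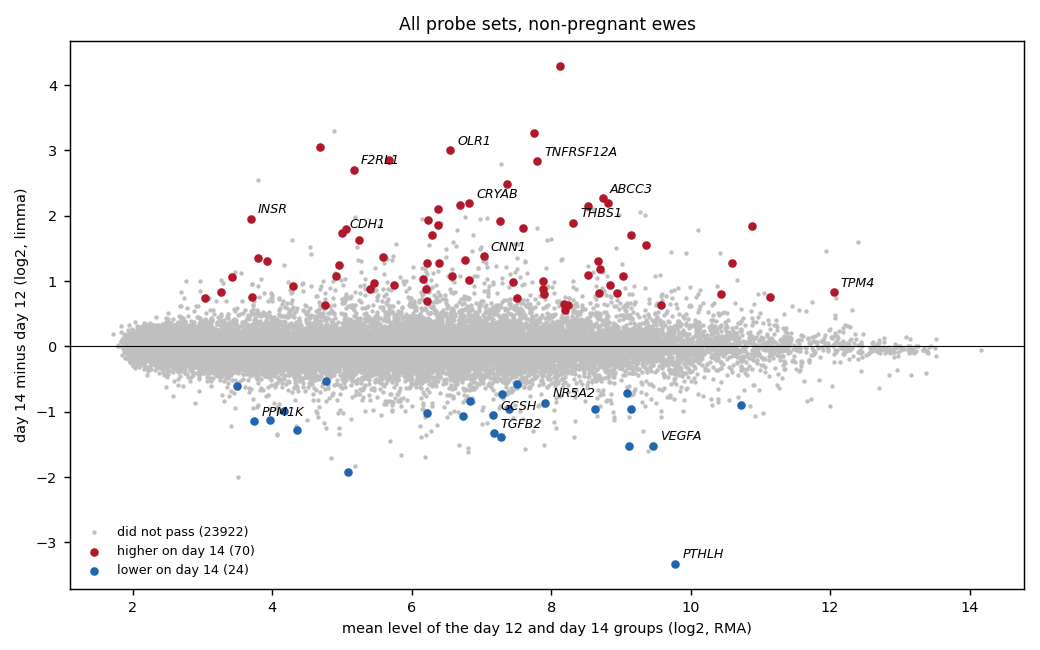
Day 14 minus day 12 in non-pregnant ewes (log2, limma with batch) for each of 24016 probe sets against the mean of the 2 group levels. Red points (70) are higher and blue points (24) lower on day 14 at an adjusted p under 0.05, from a rise of 4.30 to a difference of -3.33.

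The protease-activated receptor genes F2RL1 and F2RL2 rose in all 3 glands. F2RL1, the protease-activated receptor that trypsin-like enzymes cleave, read 3.85, 4.0 and 3.41 in the day 12 glands and 6.11, 6.95 and 6.68 in day 14 glands 1, 2 and 3. The rise was 2.70 ± 0.28 (SE), or 6.51-fold, with a limma adjusted p of 0.0019. Its day 12 values lay near 3.59, the lower quartile of probe set means, so the size of this rise is uncertain. F2RL2, which acts as a cofactor for cleavage of other receptors of this family, read 5.97, 5.21 and 5.41 against 7.56, 8.0 and 8.04, a rise of 2.17 ± 0.20 (4.50-fold, limma adjusted p = 0.00127). A dimmer probe set of F2RL2 also rose, by 1.36, and a further one did not pass. Both genes passed in all 12 fits that each left out 1 array, F2RL2 through its brighter probe set. Of the 24 measured genes of the protease-activated receptor and coagulation list, F2RL1 and F2RL2 were higher and none lower, beside 0.426% higher and 0.0765% lower (0.502% in all) over the 9155 genes by their brightest probe set. The list's median difference was -0.01, against -0.02 for all genes. This list and those below were chosen with earlier results of these data known, so their counts are description only.

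A pair of receptors of the tumour necrosis factor family rose. TNFRSF12A, the receptor for the cytokine TWEAK, rose in its dimmer probe set from 6.50, 6.47 and 6.66 to 9.59, 8.01 and 9.53, by 2.83 ± 0.36 (limma adjusted p = 0.00855). Gland 2 was the low one of the 3, and the call was lost only without gland 1 (limma adjusted p = 0.0559). Its brighter probe set read 8.11, 8.04 and 7.97 against 9.26, 8.33 and 9.41 and did not pass (limma adjusted p = 0.0525). TNFRSF6B, a decoy receptor that binds death ligands, read 6.92, 6.86 and 6.73 against 8.89, 8.41 and 7.75, a rise of 1.82 ± 0.31 (limma adjusted p = 0.0359). It passed in 5 of the 12 fits that left out 1 array. Of 28 measured genes for cell death and survival, none passed by its brightest probe set. Among the closest, BCL2L2, an anti-apoptotic family member, read 9.01, 8.82 and 8.79 against 8.33, 8.09 and 8.07, with a difference of -0.64 ± 0.12 and a limma adjusted p of 0.0525.

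Among genes of protein stress and low oxygen, CRYAB, NDRG1 and SLC2A1 rose and VEGFA fell. CRYAB, a small heat shock chaperone, was at 5.83, 5.76 and 5.66 on day 12 and at 7.82, 8.08 and 7.77 on day 14. The 3 glands lay within 0.31 of one another, and the rise of 2.20 ± 0.17 (4.58-fold) had a limma adjusted p of 0.000362 and passed in all 12 leave-one-out fits. NDRG1, a gene induced by hypoxia and differentiation, read 7.54, 7.52 and 7.93 against 9.73, 9.86 and 10.27, a rise of 2.19 ± 0.30 (limma adjusted p = 0.012). Without day 12 gland 2 its limma adjusted p was 0.0664. SLC2A1, the main glucose transporter of many cells, read 8.14, 7.90 and 8.0 against 9.11, 8.73 and 9.26, a rise of 1.09 ± 0.17 (limma adjusted p = 0.0222). VEGFA, the growth factor for blood vessels and itself a hypoxia gene, went the other way, from 10.31, 10.21 and 10.04 to 8.78, 8.21 and 9.23, a fall of 1.52 ± 0.26 on the log2 scale (limma adjusted p = 0.0386). Its dimmer probe set had a difference of -0.62 and did not pass (limma adjusted p = 0.357). SLC2A1 passed in 7 of the 12 leave-one-out fits and VEGFA in 3. The 31 measured hypoxia and glycolysis genes held 2 risers and 1 faller, beside 0.426% higher and 0.0765% lower over all genes, and had a median difference of 0.14. Their mean level was 8.12 to 8.26 on day 12 and 8.28, 8.48 and 8.34 in day 14 glands 1, 2 and 3, above day 12 in each. The mean level of the 25 measured small heat shock and cytosolic chaperone genes was likewise above day 12 in each gland. It was 8.50, 8.30 and 8.41 against 8.13 to 8.26. Both list means include the called genes, and how far they rest on them was not tested. Of the 25 chaperone genes, 9 had a difference below 0. Of these 25, CRYAB passed, and 7 were higher at an unadjusted p under 0.05, beside 6.72% of all genes. Of the 36 measured antioxidant and metallothionein genes none passed, and 9 lay wholly above day 12, beside 10.1% over all genes. The metallothionein MT2A read 11.38, 11.31 and 11.05 against 12.81, 12.36 and 12.71 (limma adjusted p = 0.0696).

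**Figure D2:**
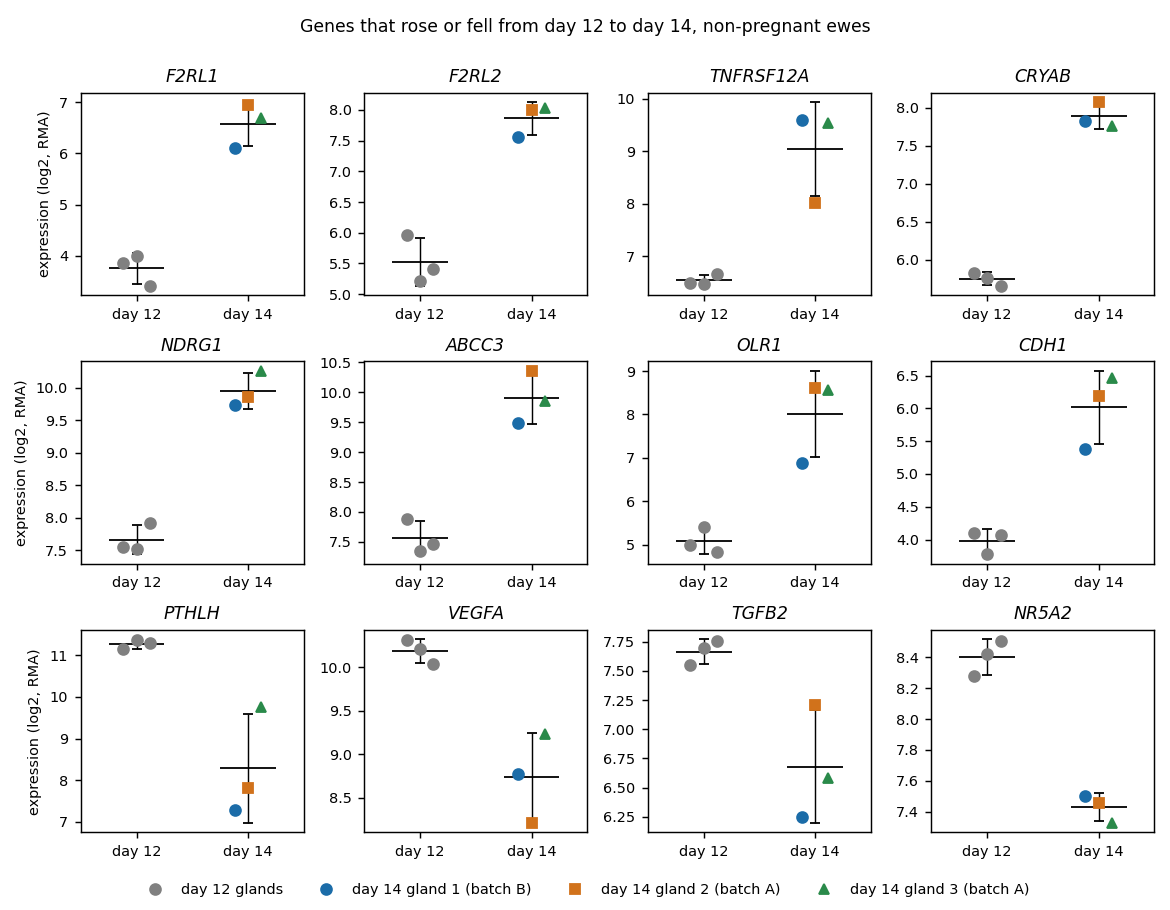
Level of 12 genes (log2, RMA) in each of the 3 day 12 and 3 day 14 non-pregnant glands, with the group mean and SD. Each panel has its own axis. The genes were picked from the 94 called probe sets, and the day 14 and day 12 points do not overlap in any of those. The fitted difference of the groups is 2.20 for CRYAB and -3.33 for PTHLH. TNFRSF12A is shown by the probe set that passed.

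OLR1, ABCC3, ABCG8 and LCAT, genes of lipid and sterol handling, rose. OLR1, a scavenger receptor for oxidized LDL, read 4.99, 5.41 and 4.82 on day 12 and 6.87, 8.61 and 8.57 on day 14, a rise of 3.0 ± 0.55 (limma adjusted p = 0.0483). Gland 1 was the lowest of the 3, and OLR1 passed in 2 of the 12 leave-one-out fits. ABCC3, an export pump for organic anions, read 7.89, 7.35 and 7.47 against 9.49, 10.36 and 9.86, a rise of 2.27 ± 0.24 (4.81-fold, limma adjusted p = 0.00216). ABCG8, part of a sterol exporter, rose from 4.41, 4.35 and 4.33 to 5.40, 5.53 and 5.42, by 1.07 ± 0.10 (limma adjusted p = 0.00162), the 3 glands lying within 0.13 of one another. The list of 25 measured genes for lipid droplets, oxidized LDL and sterol efflux had ABCC3 and OLR1 higher and none lower, beside 0.426% higher and 0.0765% lower over all genes. Of the 25, 10 had a difference below 0, and the median was 0.07. PLIN2, the coat protein of lipid droplets, read 8.42, 6.75 and 6.98 against 9.64, 9.38 and 10.40 and did not pass (limma adjusted p = 0.0696). LCAT, the plasma enzyme that esterifies cholesterol, rose by 0.82 ± 0.14 in 1 of its 3 probe sets (limma adjusted p = 0.0386). That probe set passed in 4 of the 12 leave-one-out fits.

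THBS1 and TIMP3 of the matrix, CDH1 of cell contacts and CNN1, TPM4 and VCL of the contractile skeleton rose. THBS1, an inhibitor of vessel growth that also activates TGF-beta, rose in 3 of its 6 probe sets. The brightest of these 3 read 9.73, 9.75 and 10.11 against 11.54, 11.98 and 12.18, a rise of 1.84 ± 0.27 (limma adjusted p = 0.018). The other 3 probe sets of THBS1, with differences of -0.15 or nearer 0, did not pass. TIMP3, an inhibitor of metalloproteases, read 8.12, 8.37 and 8.31 against 9.57, 10.57 and 9.96, a rise of 1.70 ± 0.25 (limma adjusted p = 0.0185). TIMP3 passed in 8 of the 12 leave-one-out fits and the brightest of the rising THBS1 probe sets in 9. CDH1, the epithelial cadherin, read 4.10, 3.77 and 4.07 against 5.39, 6.19 and 6.47, a rise of 1.73 ± 0.21 (limma adjusted p = 0.00525), while its dimmer probe set did not pass. CNN1, a calponin of smooth muscle, rose by 1.38 ± 0.16 and passed, while the other 11 measured smooth muscle and pericyte markers did not, and the median of all 12 was -0.18. TPM4 and VCL, a tropomyosin and vinculin, rose by 0.83 and 0.80, VCL in 1 of its 2 probe sets. Over the 40 measured matrix genes, 2 were higher and none lower by the brightest probe set, beside 0.426% and 0.0765% over all genes. Of the 40, 26 had a difference below 0, with a median of -0.08. At an unadjusted p under 0.05, 5 were higher and 11 lower, beside 6.72% and 6.63% over all genes.

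Growth factors moved in both directions. PTHLH, the parathyroid hormone-related protein, showed the largest fall among the called probe sets, from 11.16, 11.38 and 11.29 to 7.27, 7.80 and 9.77. The fall was 3.33 ± 0.51 on the log2 scale (limma adjusted p = 0.0194), and gland 3 was the nearest to day 12. TGFB2, a TGF-beta ligand, read 7.55, 7.69 and 7.75 against 6.25, 7.20 and 6.58, a fall of 1.33 ± 0.19 (limma adjusted p = 0.0151). BMPR1B, a receptor for bone morphogenetic proteins, rose by 0.97 ± 0.17 in 1 of its 2 probe sets (limma adjusted p = 0.0419). IGFBP3, a binding protein for insulin-like growth factors, read 8.32, 7.61 and 8.44 against 9.50, 8.88 and 9.32, a rise of 1.31 ± 0.24 (limma adjusted p = 0.0462), and its dimmer probe set had a difference of 1.07 that did not pass. INSR, the insulin receptor, rose by 1.95 ± 0.19 in 1 dim probe set of 5 (2.58, 2.73 and 2.58 against 4.39, 4.57 and 5.28, limma adjusted p = 0.00165), and the other 4 did not pass. IGFBP3 passed in 1 of the 12 leave-one-out fits, BMPR1B in 3, PTHLH in 7 and TGFB2 in 9.

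Of 21 measured progesterone synthesis and sterol supply genes, 1 passed as lower and none as higher, beside 0.0765% and 0.426% over all genes. NR5A2, a transcription factor of steroid-producing cells, read 8.28, 8.42 and 8.51 against 7.51, 7.46 and 7.33, a fall of 0.86 ± 0.14 on the log2 scale (limma adjusted p = 0.0239), with the 3 glands within 0.18. It passed in 7 of the 12 leave-one-out fits. STAR read 13.06, 13.03 and 13.06 against 12.68, 12.18 and 12.21, with a difference of -0.64 ± 0.15 and a limma adjusted p of 0.0992. Without the batch term, STAR's difference was -0.69 and its limma adjusted p 0.0179, and without day 14 gland 1 they were -0.98 and 0.00869. HSD3B1 read 12.18, 12.16 and 12.35 against 12.00, 11.19 and 11.18 and CYP11A1 read 11.80, 11.74 and 11.70 against 11.54, 11.16 and 11.16, and neither passed with or without the batch term. HSD3B1 passed without day 14 gland 1 (-0.87, limma adjusted p = 0.025) and with batch as a random block (limma adjusted p = 0.0466). For all 3 of these genes gland 1, which shares a batch with the day 12 glands, was the nearest to day 12. Of the 10 luteal cell markers 9 had a difference below 0, with a median of -0.29, and gland medians of -0.13, -0.53 and -0.67 in glands 1, 2 and 3. In whole tissue, fewer cells of a type and less RNA per cell cannot be told apart. OXT read 13.02, 13.03 and 12.79 against 12.99 to 13.24 on day 12, with a difference of -0.05 ± 0.12 that did not pass. The LH receptor LHCGR had day 14 values wholly below day 12 in all 3 of its probe sets, with differences of -0.49 (the brightest), -0.44 and -1.08 (2.12-fold lower, limma adjusted p = 0.112), and none passed. The prostaglandin F receptor PTGFR had differences of -0.46 (the brightest), -0.47 and -0.16 in its 3 probe sets, and none passed. HPGD, which inactivates prostaglandins, read 5.06, 5.90 and 5.18 against 5.05, 5.46 and 4.45, and PTGS2, which makes them, read 4.58, 4.58 and 4.50 against 4.02, 4.24 and 5.74, and neither passed. EDN1, a vasoconstrictor peptide, had day 12 values from 7.01 to 9.12 that spanned its day 14 values of 8.05 to 8.63.

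In mitochondria, GCSH, the lipoyl carrier protein of glycine cleavage, fell from 7.79, 7.80 and 7.65 to 6.85, 6.63 and 6.26, by 1.05 ± 0.14 on the log2 scale (limma adjusted p = 0.00939), while its dimmer probe set did not pass. PPM1K, a phosphatase of branched-chain amino acid breakdown, fell by 1.15 in 1 probe set of 4. Of the 27 measured genes of the glycine and branched-chain list, GCSH alone passed, beside 0.426% higher and 0.0765% lower over all genes. The V-ATPase subunit ATP6V1E1 rose by 0.82 ± 0.11 (limma adjusted p = 0.00989). It was the 1 riser of 37 measured lysosomal genes, beside 0.426% higher over all genes.

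Further genes of mixed function were among the calls. TCF7, a transcription factor of Wnt signalling, rose by 2.10 ± 0.37 (limma adjusted p = 0.0396) in the brighter of its 2 probe sets, and RHCG, an ammonia channel, by 1.91 ± 0.33. STAMBP, a deubiquitinating enzyme, read 5.59, 5.53 and 5.50 against 7.65, 6.40 and 7.11, a rise of 1.70 ± 0.25. MAPKAPK3, a kinase downstream of p38, read 8.45, 8.63 and 8.36 against 9.68, 10.68 and 10.31, a rise of 1.56 ± 0.21 (limma adjusted p = 0.0108). HSD17B11, a steroid and lipid-droplet dehydrogenase, rose by 1.27 ± 0.18, and TNIP1, a brake on NF-kappaB, by 0.88 ± 0.11 in 1 of its 3 probe sets. MAPKAPK3, HSD17B11 and this TNIP1 probe set passed in all 12 leave-one-out fits. CRABP2, a carrier of retinoic acid, read 4.02, 4.41 and 4.52 against 5.85, 6.37 and 6.26. On the falling side, CDH11, a mesenchymal cadherin, fell by 0.95 in its dimmer probe set, and its brighter one did not pass. The small GTPase genes RAB8B (in 1 of 2 probe sets) and RHEBL1 fell by 0.72 and 0.60. C2CD5, a protein of glucose transporter traffic, fell by 1.12 in 1 of 4 probe sets.

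Most cell division and interferon-stimulated genes had differences below 0, with no gene of either list passing by its brightest probe set. Of 35 measured cell division genes, 33 had a difference below 0, and in 23 the day 14 values lay wholly below the day 12 values, beside 12.4% over all genes (10.1% lay wholly above). Their median difference was -0.48, and the medians of glands 1, 2 and 3 against the day 12 mean were -0.46, -0.54 and -0.56. TPX2, a spindle protein, read 6.73, 7.34 and 6.74 against 6.03, 6.0 and 5.91 (limma adjusted p = 0.0927), and AURKB, a mitotic kinase, read 5.55, 5.75 and 5.58 against 4.99, 5.09 and 4.80 (limma adjusted p = 0.0639). KIF20A, a kinesin of cell division, did pass in its dimmer probe set, with a fall of 0.98. Without the batch term 11 of the 35 passed, all lower, beside 184 lower and 231 higher of all 24016 probe sets. Of 37 measured interferon-stimulated genes, 32 were below 0, 16 lay wholly below day 12, and the median was -0.28, with gland medians of -0.28, -0.25 and -0.31. Over the same days in pregnancy this list's median difference was 0.30. The cell division median stayed between -0.57 and -0.36, and that of the interferon genes between -0.39 and -0.17, in every alternative run.

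Blood and stromal cells were looked at through their markers. The 15 measured macrophage markers had mean levels of 5.96 to 6.38 on day 12 and of 6.05, 6.72 and 6.92 in day 14 glands 1, 2 and 3, so gland 1 lay within the day 12 range and the others above it. The 12 class II antigen presentation genes did the same, at 6.22 to 6.55 on day 12 and 6.46, 7.17 and 7.10 on day 14. None of these genes passed. The median differences of 0.22 and 0.10 became -0.11 and -0.07 with batch B arrays alone, where gland 1 is the only day 14 non-pregnant gland. The 16 endothelial markers had mean levels of 6.81 to 6.88 on day 12 and of 6.93, 6.48 and 6.69 on day 14. Fibroblast markers had a median difference of -0.41, with medians of -0.30, -0.44 and 0.05 in glands 1, 2 and 3 against the day 12 mean. COL1A1 read 10.88, 10.88 and 11.38 against 10.24, 10.61 and 11.10. The T and NK cell markers had mean levels of 4.65 to 4.74 on day 12 and of 4.67, 4.65 and 4.8 on day 14. The part of these cell types in the gene differences above was not tested.

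The 3 day 14 glands resembled one another less than the day 12 glands did. Pairs of day 14 glands differed by more than 1 in 477 probe sets (glands 1 and 2), 429 (1 and 3) and 472 (2 and 3), whereas day 12 pairs did so in 103 to 132. Pairs of pregnant glands of the same day did so in 102 to 213. The root mean square difference was 0.36 for day 14 pairs and 0.24 for day 12 pairs on average. Glands 2 and 3, which share a batch, had the largest root mean square difference of the 3 pairs, 0.374. The median SD of a probe set was 0.155 on day 14 and 0.109 on day 12, and 1049 probe sets had an SD over 0.5 on day 14 against 295 on day 12. The difference in spread was described and not tested.

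**Figure D3:**
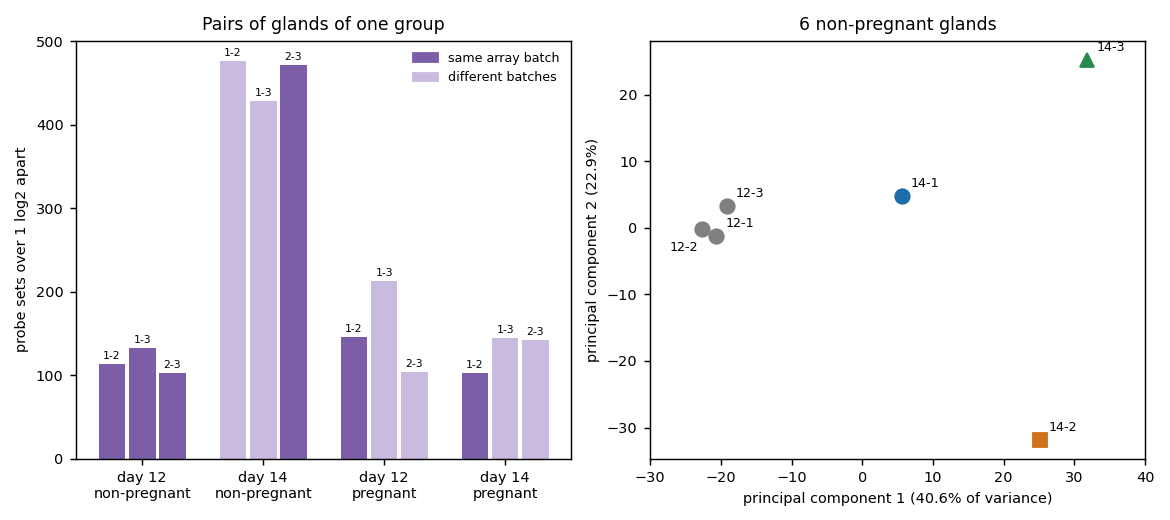
Left, the number of probe sets that differ by more than 1 (log2) between 2 glands of a group, with pairs named by replicate number and shaded by whether both arrays are of one batch. Right, the first 2 principal components of the 6 non-pregnant arrays, labelled by day and replicate. Day 14 pairs reach 429 to 477 and day 12 pairs 103 to 132, and the day 14 glands lie apart from each other.

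On principal component 1 of the 6 arrays, which held 40.6% of the variance, the day 12 glands lay at -22.7 to -19.1 and the day 14 glands at 5.55, 25.1 and 31.8. Gland 1 was thus the nearest to day 12 on this component. It is also the only one of the 3 in the batch of the day 12 glands, and these values are not corrected for batch. Component 2, with 22.9%, separated gland 2 at -31.8 from gland 3 at 25.2. Each gland had probe sets in which it stood alone, more than 1 away from the other 2, which agreed within 0.5. There were 80 such probe sets for gland 1, 99 for gland 2 and 115 for gland 3. In gland 1, 51 of the 80 lay on the side of day 12, against 28 and 15 in the others. For gland 1, batch and gland cannot be told apart in these counts either. In gland 3, 100 of the 115 were higher.

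The median step from the day 12 mean over the 70 called rises was 1.13, 1.38 and 1.33 in glands 1, 2 and 3, and over the 24 falls it was -1.0, -0.94 and -0.97. These probe sets were chosen for a common change.

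The genes on which the day 14 glands differed most, with day 12 SD under 0.3, were mainly high in gland 3. NR4A2, a nuclear receptor switched on within minutes of stimulation, was at 5.28 to 5.75 on day 12 and at 5.76, 5.57 and 9.70 on day 14. TRIB1, a pseudokinase, read 7.93, 7.50 and 11.70 in the day 14 glands. PLK3, FOSB, KLF5 and ZC3H12A were likewise highest in gland 3, at 8.71, 8.47, 7.97 and 8.61. INHBA, the activin A subunit, read 7.96, 7.59 and 10.84 against 5.62 to 5.85 on day 12, so all 3 glands were above day 12 and gland 3 was far above the rest. Over the 24 measured immediate early and stress transcription factors, the gland medians were 0.20, -0.28 and 1.22. ATF3, a stress-induced transcription factor, read 7.11, 4.88 and 9.64 against 4.77 to 5.38, and FOS, an immediate early factor, read 8.82, 8.08 and 12.26 against 9.25 to 10.59 on day 12. PTX3, a pentraxin of inflammation, was instead low in gland 2, at 9.59, 6.92 and 8.62.

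**Figure D4:**
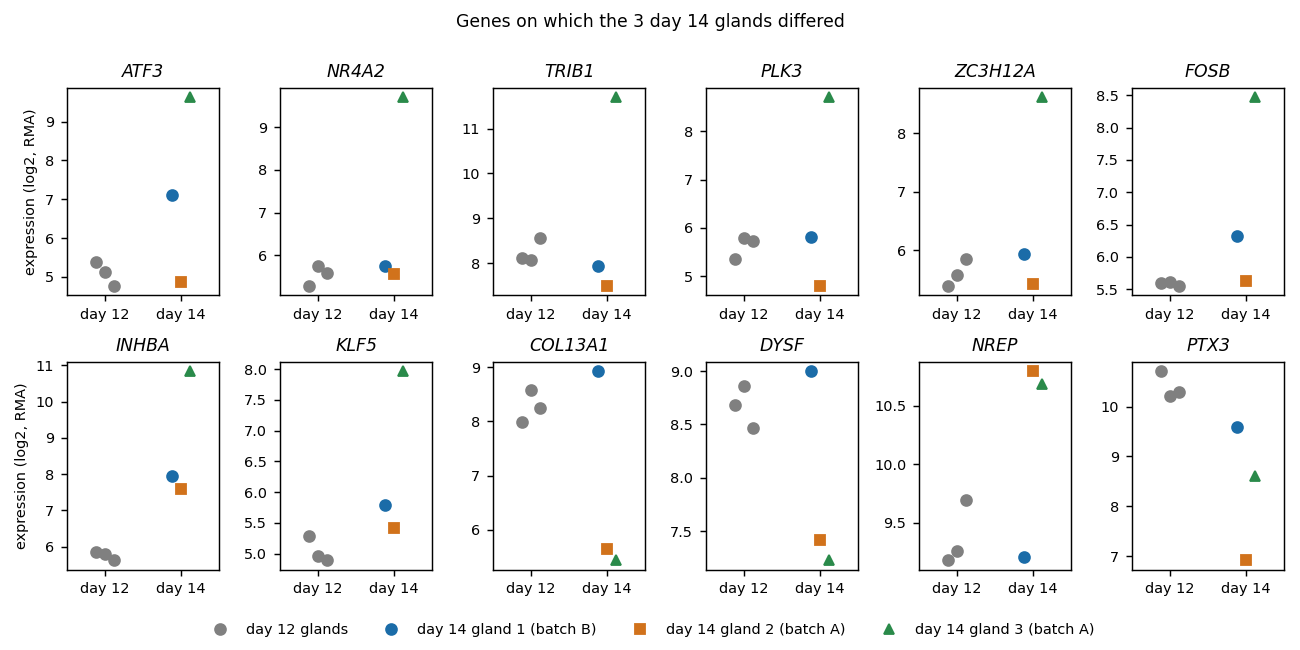
Level of 12 genes (log2, RMA) that differed among the day 14 glands, in the 3 day 12 glands (grey) and in day 14 glands 1 to 3 (coloured). Each panel has its own axis. ATF3 was on a fixed list and the others were picked for their spread on day 14. Gland 3 is highest for NR4A2 at 9.70, and gland 1 is apart for COL13A1 at 8.93.

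Gland 1 stood apart on another set of genes. COL13A1, a transmembrane collagen, read 8.93 in gland 1, near the day 12 values of 7.98 to 8.57, and 5.65 and 5.44 in glands 2 and 3. DYSF, dysferlin, read 9.00, 7.42 and 7.23 against 8.47 to 8.86 on day 12. NREP, a neuronal regeneration protein, read 9.21, 10.80 and 10.69 in its brighter probe set. VCAN, the proteoglycan versican, read 6.52 in gland 1 and 8.0 and 7.87 in the others, and ITGB2, the leukocyte integrin chain, read 6.11, 7.45 and 7.42. Since gland 1 is the only day 14 non-pregnant gland of batch B, batch and gland cannot be told apart for these genes. Over the lists, the mean level of gland 3 lay above the day 12 range in 25 of 38 lists and below it in 11. Gland 2 lay above in 14 and below in 17, and gland 1 above in 17 and below in 9. By mean level, all 3 glands lay above the range in 9 lists and below it in 5. The 5 were cell division, interferon-stimulated genes, luteal cells, fibroblasts and the parathyroid hormone-related protein list. The last has 3 measured genes, of which PTHLH alone passed, and its median step in gland 2 was 0.22. For fibroblasts the median step in gland 3 was 0.05. Glands lay on opposite sides of the day 12 range in 10 lists.

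**Figure D5:**
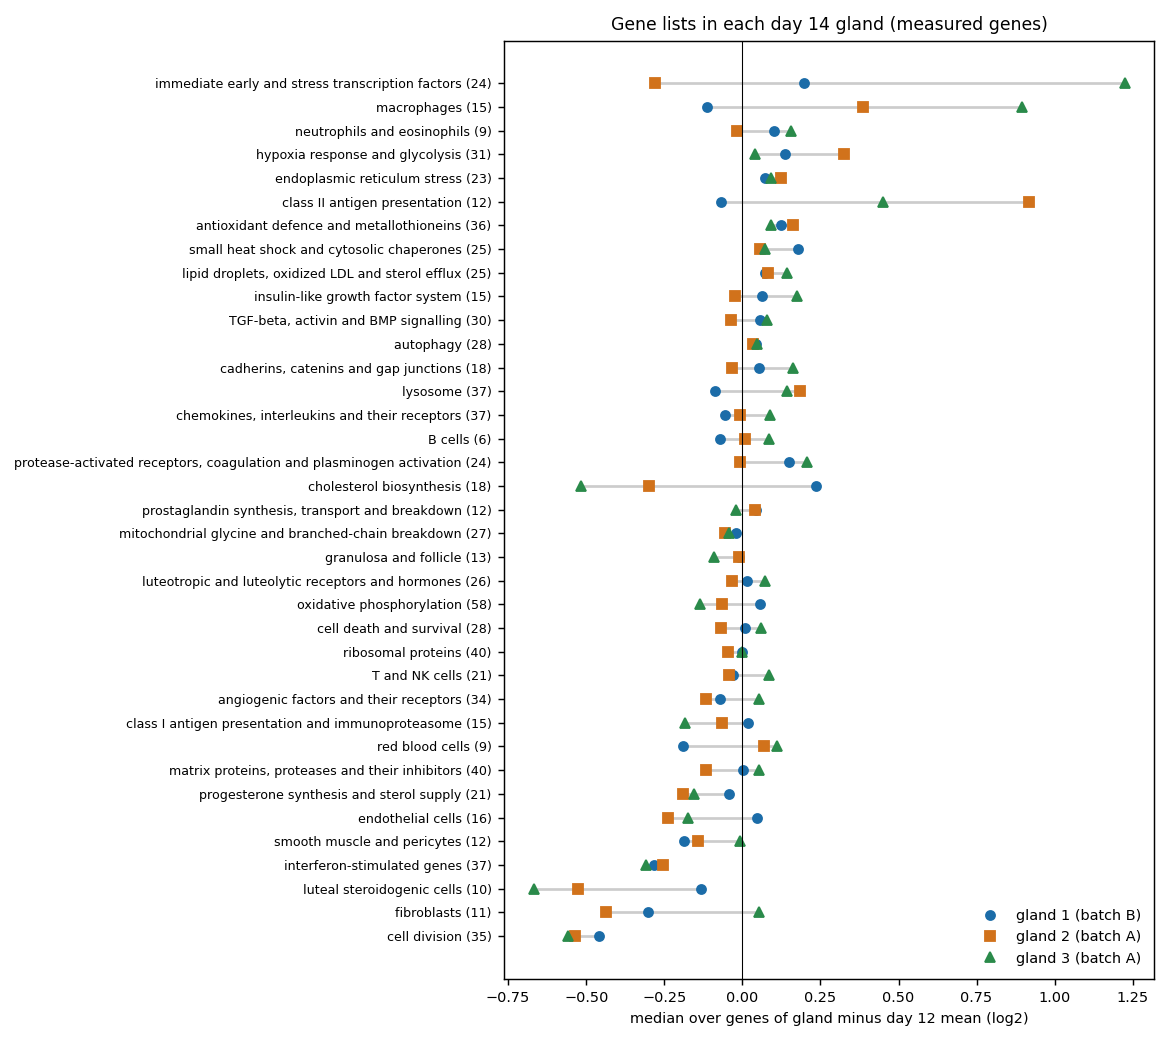
Median step from the day 12 mean (log2) over the genes of each list with 5 or more measured, in day 14 glands 1, 2 and 3. The number of measured genes is in brackets. Cell division (-0.46, -0.54 and -0.56) and interferon-stimulated genes (-0.28, -0.25 and -0.31) lie at nearly one value, and immediate early factors (0.20, -0.28 and 1.22) are spread widest.

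The day change was then set against that of the pregnant ewes. Over the same days in pregnancy limma called 0 probe sets (1063 at an unadjusted p under 0.05), and the largest pregnancy difference among the 94 was 0.66 in size. The difference of the 2 day changes, tested as an interaction, passed for 21 probe sets (0.0874%), 19 of them also called in the cycle. CRYAB rose by 1.96 ± 0.22 more in non-pregnant than in pregnant ewes (limma adjusted p = 0.013) and F2RL1 by 2.57 ± 0.37 (limma adjusted p = 0.0394). Leaving out 1 array took the count of 21 to between 1 and 76. For PTHLH the interaction was -3.41 and did not pass (limma adjusted p = 0.132), nor did it for VEGFA (limma adjusted p = 0.132) or NR5A2 (0.0928).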

How the data were processed

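Gene expression was measured in 12 ovine corpora lutea on bovine arrays. The deposited values are log2 expression per probe set, which the authors computed by the RMA method. The submitters' processing notes also name Affymetrix Expression Console, with no version. Groups came from the source label, since titles conflict with it for 9 of 12 arrays. From 24128 probe sets 112 controls were left out. Of 24016 tested, 13292 had 1 gene symbol. Differences were fitted with limma 3.58.1 in R 4.3.3 on 4 group means plus batch, two-sided, with an adjusted p threshold of 0.05, and 7 residual degrees of freedom. The script was tested on simulated data. Replicates are separate ewes. For gene lists, the brightest probe set of a gene was used. Sheep RNA on bovine probes can lower a signal, so levels of different probe sets served only as a coarse tissue check, to mark dim ones and to choose the brightest of a gene. Members and lists were chosen with earlier results of these data known. Genes named are the 15 largest rises and 15 largest falls, list genes past the threshold with up to 4 further by smallest p, fixed genes, and those that differed most among day 14 glands. Alternatives changed batch handling, arrays, weights, prior, scaling, filter and probe set choice. Sequences and genome coordinates were not used here.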

Additional observations from a re-analysis of the deposited data

Results flagged for a closer look

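For 21 probe sets the change from day 12 to day 14 differed between non-pregnant and pregnant ewes by an interaction test in limma with adjusted p under 0.05, and 12 of them had a gene symbol. More positive in the cycle were the probe set without a symbol that rose most (4.23), F2RL1 (2.57), ABCC3 (2.19), F2RL2 (2.16), CRYAB (1.96), INSR in its dim probe set (1.95), CDH1 (1.74), CNN1 (1.43), EMG1 (1.17), ABCG8 (0.98) and ATP6V1E1 (0.93). More negative were TGFB2 (-1.64), PPM1K (-1.70) and 2 probe sets without a symbol (-2.0 and -2.25). The remaining 6, all without a symbol, had differences of 3.09, 2.69, 2.07, 0.95, -1.01 and -1.25. EMG1 was not itself called in the cycle (limma adjusted p = 0.0803), and its pregnancy difference was -0.56.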

How the results depend on the processing

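All 94 calls kept their direction in every alternative in which they were tested, but many did not pass again. Of the 94, 88 passed without the batch term and 87 with batch as a random block. When 1 array was left out, 28 to 94 of them passed, and 42 without day 14 gland 1. With the 6 non-pregnant arrays alone 72 probe sets passed, 48 of them among the 94. Without the batch A day 14 arrays, gland 1 alone stands for day 14 of the cycle. Called probe sets of each alternative are counted next, whether or not they are among the 94. Their number was 415 without the batch term, 462 with batch as a random block, 142 with batch B arrays alone, 159 without both batch A day 14 arrays, 51 with 1 probe set a gene, 57 with a minimum difference of 1, and 28 to 254 when 1 array was left out. With array weights per group 69 passed (56 higher and 13 lower), and with weights per array 73 (58 higher and 15 lower). The share of rises fell from 74.5% to 55.7% without the batch term and to 54.1% with the random block. The interaction count of 21 was 50 without the batch term and 1 to 76 when 1 array was left out. Pregnancy gave 0 throughout, including fits added after seeing the data. Mean root mean square difference of day 14 pairs was 0.362, and 0.388 among probe sets outside the lowest 25% by signal or 0.321 with the batch term removed. Of the 94 called probe sets, 22 passed in all 12 leave-one-out fits, some of them without a gene symbol. Among the 22 were F2RL1, CRYAB, ABCC3, CDH1, GCSH and CNN1. NDRG1 failed without day 12 gland 2, and TNFRSF12A without day 14 gland 1. No paired analysis was possible because replicate numbers follow accession order and pair no ewes. With 3 arrays a group, the number of arrays limits precision, and RMA values carry no detection call.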

Other observations

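IL6, an inflammatory cytokine, read 5.21, 4.42 and 5.03 in the day 12 glands and 2.03, 2.16 and 2.17 in the day 14 glands. The day 14 values lie below 3.59, the lower quartile of probe set means, where RMA values cannot be told from absence of signal, so the size of the difference is uncertain. The fitted difference was -2.01 ± 0.59 and did not pass in the fit of all arrays (limma adjusted p = 0.197). Without the batch term it was -2.77 ± 0.62 over all arrays (limma adjusted p = 0.0455). In the fit of the 6 non-pregnant arrays alone, also without that term, it was -2.77 ± 0.19 (limma adjusted p = 0.00509). Day and batch are mixed in both of these fits. Pregnant glands ranged from 2.79 to 6.16. IL6 was singled out after its values were seen.

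The largest rise of all belonged to a probe set without a gene symbol, which read 6.0, 5.76 and 6.0 on day 12 and 10.10, 10.52 and 10.36 on day 14, a rise of 4.30 ± 0.25 (19.7-fold, limma adjusted p = 3.68e-05). Another without a symbol fell by 1.92 on the log2 scale, from 5.92, 6.35 and 6.10 to 4.18, 3.73 and 4.24. Both passed in all 12 leave-one-out fits. PTGIS, the prostacyclin synthase, read 5.88, 6.13 and 6.69 against 7.34, 8.06 and 7.60 and did not pass (limma adjusted p = 0.0545).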
